A study of Mus musculus with 6 samples.

Results

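The 34 genes described here are interferon-stimulated genes, picked by gene symbol as known targets of interferon. They and their roles were chosen with earlier results of these data known. All 34 were found among the 34745 genes of the table, and all 34 passed the filter on low counts that left 15198 genes for testing. The tissue was the left ventricle of male C57BL/6 mice, labelled WT and given as 8 weeks old. One group is labelled TAC, for transverse aortic constriction, a surgical narrowing of the aortic arch that overloads the ventricle, and the other Sham, for the operation without it. Left ventricles were collected 6 weeks after surgery. Each group holds 3 libraries of total RNA, labelled TAC 1 to 3 and Sham 1 to 3, and whether every library is a different animal is not labelled. The p-values therefore weigh differences against the spread among libraries, which may be technical.

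Interferons are secreted signals of antiviral defence. Type I interferons bind the receptor IFNAR and activate the factor ISGF3, which includes STAT2 and IRF9 and binds a DNA element called the interferon-stimulated response element (ISRE). Interferon gamma binds a separate receptor and acts through another element, the gamma-activated site (GAS). The genes these factors switch on sense viral nucleic acid, block translation of viral RNA, attach the ubiquitin-like protein ISG15 to other proteins, or attack the membranes around intracellular pathogens. In heart tissue, resident macrophages and endothelial cells are among the cells known to express such genes without infection.

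Depth was 17399510 to 28401399 counts per library over all genes. The cardiomyocyte markers Myh6, Ryr2 and Atp2a2 were among the most abundant transcripts in every library, while the atrial light chain gene Myl7 stood at 0.0967, 1.43 and 11.6 CPM (counts per 1000000 of scaled library size) in TAC 1, 2 and 3 and at 9.95, 0.141 and 10.1 CPM in Sham 1, 2 and 3. Nppa, the gene of atrial natriuretic peptide that pressure overload is known to raise, had 92.2, 64.3 and 95.1 CPM in TAC 1, 2 and 3, against 772, 1894 and 595 CPM in Sham 1, 2 and 3. Acta1, skeletal alpha-actin, ran the same way with 641, 446 and 121 CPM in TAC 1, 2 and 3 against 3282, 5030 and 3060 CPM in Sham 1, 2 and 3. All 7 genes of the pressure-overload list had lower estimates in the libraries labelled TAC, against 49.1% of all genes tested. In 6 the groups did not overlap (85.7%, against 13.6% of all genes in that direction). Of the 7, 5 passed an adjusted p of 0.05 in edgeR, against 1.43% of all genes tested. The directions of Nppa and Acta1 go against the labels, so the text speaks of libraries labelled TAC or labelled Sham. Each direction below is that of the labels only.

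Among the 34 genes, 25 had at least 1 promoter window in RefSeq (build GRCm38.p6; 250 bases before to 50 after each start), 29 windows in all. The ISRE core, searched on both strands as GAAA, any 2 bases and GAAA again (TTTC, any 2 bases and TTTC on the other strand), lay in 19 of these 29 windows (65.5%), against 3.44% of all 32851 windows. It was found for 18 of the 25 genes, and the 7 without it in these windows were Cmpk2, Ifi44, Ifit2, Irf7, Irf9, Oasl2 and Xaf1. The GAS core TTCNNNGAA, which reads the same on both strands, lay in 7 of the 29 (24.1%), against 8.30% of all windows, and overlapped an ISRE match in 1 gene, Bst2. These matches describe letters in a window and not measured binding.
The stretches below show the ISRE cores alone in capitals, with GAS letters left in lower case. They are given for Trim30a, 3 IFIT genes, the ISG15 modifier, and members of the GBP and IRG families. All are read 5′ to 3′ along the gene's own strand and end before its start.
Isg15, chr4:156200853-156200918, minus strand: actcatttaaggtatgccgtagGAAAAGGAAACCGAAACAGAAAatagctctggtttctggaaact
Ifit1, chr19:34640763-34640835, plus strand: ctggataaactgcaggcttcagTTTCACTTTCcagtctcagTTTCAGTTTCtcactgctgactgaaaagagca
Ifit3, chr19:34583351-34583438, plus strand: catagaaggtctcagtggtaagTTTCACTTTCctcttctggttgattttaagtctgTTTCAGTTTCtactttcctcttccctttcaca
Ifit3b, chr19:34607747-34607834, plus strand: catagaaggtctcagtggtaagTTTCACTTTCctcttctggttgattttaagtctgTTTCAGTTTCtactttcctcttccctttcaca
Trim30a, chr7:104465198-104465251, minus strand: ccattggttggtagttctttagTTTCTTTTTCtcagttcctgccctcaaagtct
Gbp2, chr3:142620582-142620635, plus strand: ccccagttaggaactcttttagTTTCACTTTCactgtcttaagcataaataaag
Igtp, chr11:58199500-58199553, plus strand: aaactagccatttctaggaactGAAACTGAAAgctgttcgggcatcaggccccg
Irgm2, chr11:58214891-58214944, plus strand: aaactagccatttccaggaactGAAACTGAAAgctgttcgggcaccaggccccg
Isg15 held 3 overlapping cores, and Ifit1, Ifit3 and Ifit3b held 2 each. The stretches of Ifit3 and Ifit3b were identical over all 88 bases, and those of Igtp and Irgm2 over 52 of 54. Over 268 bases of their promoter windows, aligned without gaps at the best offset, Ifit3 and Ifit3b matched at 75%. Ifit3 and Ifit3b are known as close copies, though their transcripts were not compared here. With the handling of shared reads not given in the sources used here, their separate values are uncertain. The deposited locus of Irgm2 (chromosome 11, 58199618 to 58222779, GRCm38) also covers 7974 bases of Igtp (58199556 to 58207591), so these values may share reads too.

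The comparison asks how the interferon programme of the left ventricle differs between the labelled operations. No interferon-stimulated gene passed an adjusted p of 0.05 in edgeR's quasi-likelihood test, where 1.43% of all genes tested did (1.11% lower in the libraries labelled TAC, against 0.322% higher). The smallest adjusted p was 0.111, for Mx1 (DESeq2 also called 0 of the 34, and 1184 of all 15198 genes). At an unadjusted p under 0.05 there were 5 of 34, all with lower values in the libraries labelled TAC: Mx1, Ifit2, Trim30a, Ifi27 and Ifit3. That is 14.7% of the 34, against 20.9% of all genes in either direction, 11.4% in the lower direction and 9.56% in the higher. The count was 2 without the library labelled Sham 1 and 4 to 6 without any other library. Without TAC 1 it was 4, of which 3 were lower in the libraries labelled TAC and 1, Mx2, was higher (log2 difference 0.76). In 6 genes the groups did not overlap, each lower in the libraries labelled TAC: Irf7, Ifit2, Oasl2, Mx1, Trim30a and Ifi27. Over all genes 27.0% did not overlap, 13.6% with lower and 13.4% with higher values in the libraries labelled TAC.

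Estimates were lower in the libraries labelled TAC for 23 of the 34 (67.6%), against 49.1% of all genes tested. The median log2 difference, labelled TAC minus labelled Sham, was -0.15 over the 34 and 0.01 over all genes. Precision was enough to bound the differences: for 30 of the 34 the 95% interval of the fitted difference stayed inside 2-fold in either direction. The exceptions were Ifit3b, Isg15, Mx1 and Mx2, whose intervals reached past 2-fold. These intervals are per gene and are not widened for the number of genes.

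**Figure D1:**
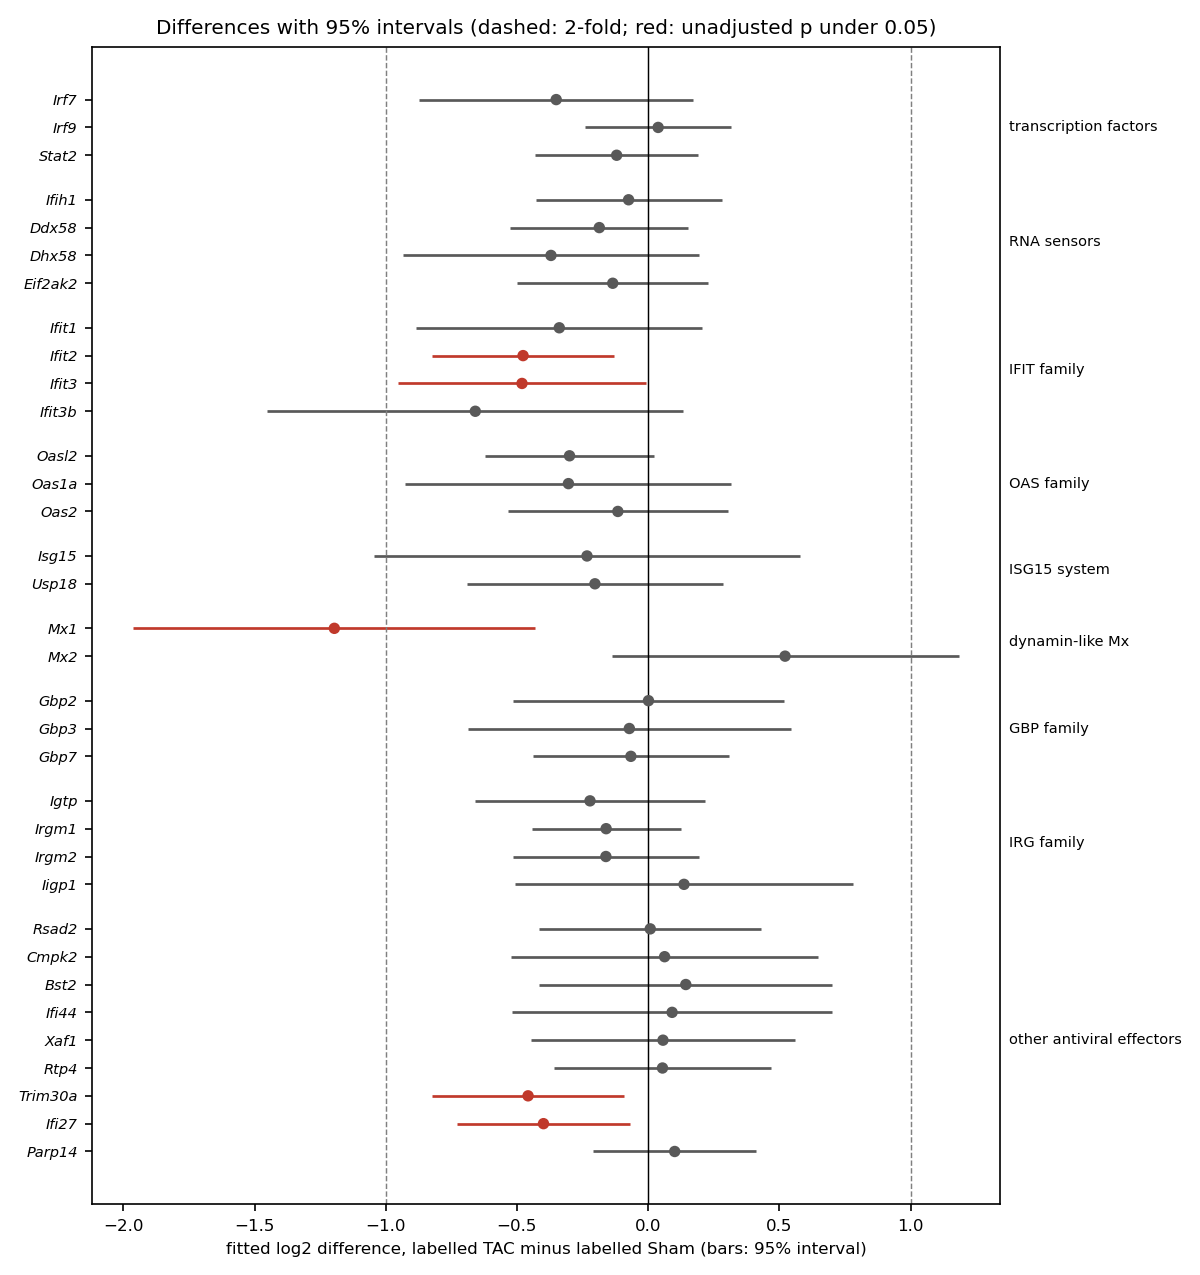
Fitted log2 difference (x axis, labelled TAC minus labelled Sham) of the 34 interferon-stimulated genes, grouped by role, with 95% intervals as bars and 3 libraries a group. The 5 genes in red have an unadjusted p under 0.05 and lie left of 0, and 30 intervals stay between the dashed lines at 2-fold.

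The IFIT proteins, which bind viral RNA and block its translation, were the family with the lowest median among those of 3 or more genes (log2 difference -0.48). Ifit2 had 20.3, 28.2 and 27.6 CPM in TAC 1, 2 and 3, against 32.9, 36.2 and 36.6 CPM in Sham 1, 2 and 3. Every library labelled TAC lay under every library labelled Sham. The fitted difference was -0.48 (SE 0.15), 1.39-fold lower (adjusted p = 0.138 in edgeR).

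Ifit3 had 6.62, 11.0 and 8.54 CPM in TAC 1, 2 and 3 and 13.5, 10.9 and 12.2 CPM in Sham 1, 2 and 3. Its groups overlapped through TAC 2 and Sham 2 (log2 difference -0.48, SE 0.20, adjusted p = 0.232). Ifit3b, its near copy, had 1.84, 3.87 and 4.42 CPM in the libraries labelled TAC, against 6.55, 3.99 and 5.48 CPM in those labelled Sham. TAC 1 was lowest by a wide margin, and TAC 3 stood above Sham 2 (log2 difference -0.66, 95% interval -1.45 to 0.13). Without TAC 1 the estimate was -0.36. Ifit1 had 5.95, 7.79 and 10.5 CPM in TAC 1, 2 and 3 against 11.4, 8.26 and 11.0 CPM in Sham 1, 2 and 3 (log2 difference -0.34, adjusted p = 0.451). All 4 genes of the family, which lie together on chromosome 19, had their lowest value in TAC 1. With 1 library left out, the difference ran from -0.57 to -0.16 for Ifit1, from -0.56 to -0.34 for Ifit2, from -0.68 to -0.32 for Ifit3 and from -0.90 to -0.36 for Ifit3b, each nearest 0 without TAC 1.

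Mx proteins are dynamin-like GTPases that trap viral nucleocapsids, and most laboratory strains, C57BL/6 among them, carry defective alleles. RefSeq types both Mx1 and Mx2 of the C57BL/6J reference as transcribed pseudogenes. Mx1 (chromosome 16, 97447035 to 97462907) had 0.677, 0.967 and 0.610 CPM in TAC 1, 2 and 3, against 1.58, 1.41 and 2.23 CPM in Sham 1, 2 and 3. These rest on 14, 19 and 12 counts in TAC 1, 2 and 3 against 33, 40 and 41 counts in Sham 1, 2 and 3, the lowest level per length of the 34 genes. The groups did not overlap, and the fitted difference of 2.29-fold (log2 -1.20, SE 0.33, adjusted p = 0.111) had the lowest estimate of the 34. Mx2 gave the highest estimate: 2.47, 4.28 and 4.83 CPM in the libraries labelled TAC, against 2.30, 2.72 and 3.04 CPM in those labelled Sham. There TAC 1 lay among the libraries labelled Sham and TAC 2 and 3 lay above them (log2 difference 0.52, SE 0.29, adjusted p = 0.342).

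Among the transcription factors, Irf7, the regulator that amplifies type I interferon production, had 3.72, 6.06 and 6.45 CPM in TAC 1, 2 and 3, against 7.17, 6.99 and 6.51 CPM in Sham 1, 2 and 3. The groups did not overlap, but TAC 3 and Sham 3 nearly met, on 127 and 120 counts, and TAC 1 stood well below the rest (log2 difference -0.35, SE 0.23, adjusted p = 0.418). Without TAC 1 the difference was -0.14. Irf9, the DNA-binding part of ISGF3, had similar levels in all libraries, at 14.4, 16.3 and 15.1 CPM in the libraries labelled TAC, against 14.97, 14.2 and 15.5 CPM in those labelled Sham, with a 95% interval from -0.24 to 0.32. Stat2, its partner, had 28.0, 23.0 and 28.3 CPM in TAC 1, 2 and 3 against 31.2, 25.6 and 29.4 CPM in Sham 1, 2 and 3 (log2 difference -0.12, SE 0.13), with overlapping groups.

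All 4 RNA sensors had negative estimates, and in each the groups overlapped. Ddx58 encodes RIG-I and Ifih1 encodes MDA5, helicases that detect viral double-stranded RNA, and Dhx58 encodes their regulator LGP2. Eif2ak2 encodes PKR, the kinase that halts translation on double-stranded RNA. Eif2ak2 had 28.1, 30.8 and 22.4 CPM in TAC 1, 2 and 3 and 29.3, 26.3 and 33.8 CPM in Sham 1, 2 and 3 (log2 difference -0.14, SE 0.16). Ddx58 had 24.0, 26.2 and 22.3 CPM in TAC 1, 2 and 3 against 23.2, 27.2 and 32.1 CPM in Sham 1, 2 and 3, where Sham 3 alone stood high (log2 difference -0.19, SE 0.15). Dhx58 had the smallest p of the group (1.60, 2.14 and 1.78 CPM in TAC 1, 2 and 3 against 2.39, 2.05 and 2.71 CPM in Sham 1, 2 and 3, adjusted p = 0.426), and Ifih1 the estimate nearest 0 (-0.07, SE 0.15).

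The OAS enzymes make the 2′-5′ oligoadenylates that activate the nuclease RNase L, and Oasl2 encodes a related protein. Oasl2 had 13.9, 15.4 and 11.8 CPM in TAC 1, 2 and 3, against 16.2, 16.5 and 18.0 CPM in Sham 1, 2 and 3. The groups did not overlap, by a narrow gap between TAC 2 and Sham 1 (log2 difference -0.30, SE 0.14, adjusted p = 0.269). Oas2 had 13.1, 13.1 and 18.6 CPM in TAC 1, 2 and 3 against 14.6, 18.5 and 15.4 CPM in Sham 1, 2 and 3, and Oas1a 1.69, 2.55 and 2.24 CPM in TAC 1, 2 and 3 against 2.44, 2.23 and 3.37 CPM in Sham 1, 2 and 3, with overlapping groups in both (adjusted p = 0.759 and 0.561).

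Isg15, the ubiquitin-like modifier, rested on 10 to 28 counts per library. It had 0.967, 0.509 and 0.915 CPM in TAC 1, 2 and 3 and 1.004, 0.989 and 0.814 CPM in Sham 1, 2 and 3, and its interval, from -1.05 to 0.58, reached past 2-fold lower. Usp18, the protease that removes ISG15 and restrains the receptor, had 3.19, 3.16 and 4.17 CPM in TAC 1, 2 and 3 against 4.59, 4.03 and 3.47 CPM in Sham 1, 2 and 3 (log2 difference -0.20, SE 0.21). In both genes TAC 2 was the lowest library and Sham 1 the highest.

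Guanylate-binding proteins (GBP) and immunity-related GTPases (IRG) act against pathogens in vacuoles and answer mainly to interferon gamma. The median difference was -0.07 for the 3 GBP genes and -0.16 for the 4 IRG genes, and the groups overlapped in all 7. Gbp2 had 21.4, 19.5 and 28.0 CPM in TAC 1, 2 and 3 and 29.4, 17.1 and 22.4 CPM in Sham 1, 2 and 3, a fitted difference of 0.00 (SE 0.22). Gbp7 had 28.2, 32.3 and 40.7 CPM in TAC 1, 2 and 3 against 39.7, 32.1 and 34.2 CPM in Sham 1, 2 and 3 (log2 difference -0.07, SE 0.16), and Gbp3 10.7 ± 2.82 CPM in the group labelled TAC against 11.2 ± 3.38 CPM in the group labelled Sham (SD, n = 3 each). Within each group these genes differed by more between libraries than the group means differed.

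Iigp1 (chromosome 18, 60376029 to 60392627), an IRG GTPase, had 38.9, 52.8 and 65.8 CPM in TAC 1, 2 and 3 and 53.9, 30.2 and 59.3 CPM in Sham 1, 2 and 3. Sham 2 was its lowest library and TAC 3 its highest, so the order of libraries cut across the groups (log2 difference 0.14, SE 0.28). Irgm2 had 25.3, 28.0 and 29.6 CPM in TAC 1, 2 and 3 against 36.7, 25.6 and 30.5 CPM in Sham 1, 2 and 3. Irgm1, which has the smallest p of this family, had 18.1, 20.1 and 21.5 CPM in TAC 1, 2 and 3 against 23.9, 20.9 and 21.9 CPM in Sham 1, 2 and 3 (log2 difference -0.16, SE 0.12, adjusted p = 0.497). Igtp had 11.4 ± 1.56 CPM in the group labelled TAC against 13.4 ± 2.65 CPM in the group labelled Sham (SD, n = 3 each).

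The other 9 genes divided. Trim30a, a TRIM protein that dampens inflammatory signalling in mice, had 13.7, 19.7 and 18.8 CPM in TAC 1, 2 and 3, against 25.2, 23.1 and 23.4 CPM in Sham 1, 2 and 3 (1.37-fold lower, log2 difference -0.46, SE 0.16, adjusted p = 0.165 in edgeR). Ifi27, which encodes a small membrane protein of the mitochondrion and nuclear envelope, had 10.4, 8.81 and 10.5 CPM in TAC 1, 2 and 3 against 14.3, 12.1 and 12.7 CPM in Sham 1, 2 and 3 (1.32-fold lower, log2 difference -0.40, SE 0.14, adjusted p = 0.173). In both genes the groups did not overlap, and with 1 library left out Trim30a ran from -0.56 to -0.31 and Ifi27 from -0.45 to -0.32.

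The remaining 7 had small positive estimates, from 0.01 to 0.14, and overlapping groups. Parp14, a mono-ADP-ribosyltransferase, had the highest CPM of the set, with 68.8, 80.9 and 93.9 CPM in TAC 1, 2 and 3 and 80.7, 70.7 and 75.7 CPM in Sham 1, 2 and 3 (log2 difference 0.10, SE 0.13). Bst2, the tetherin gene, whose product holds budding virions at the cell surface, had 6.04, 7.13 and 11.3 CPM in TAC 1, 2 and 3 against 6.84, 7.84 and 7.44 CPM in Sham 1, 2 and 3, where TAC 3 stood alone at the top. Rsad2, the viperin gene, and Cmpk2, a nucleotide kinase gene, are neighbours on chromosome 12. Both had their highest value in TAC 3 and their lowest in TAC 1 (Rsad2 26.2 and 17.2 CPM, Cmpk2 13.1 and 6.91 CPM). Xaf1, a pro-apoptotic gene, had estimates of 0.06 (SE 0.22), Ifi44 of 0.09 (SE 0.26) and Rtp4, a receptor chaperone gene, of 0.05 (SE 0.18). With library totals left unscaled or with limma on log2(FPKM + 0.1), Xaf1, Rtp4 and Rsad2 had negative estimates between -0.07 and -0.01.

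**Figure D2:**
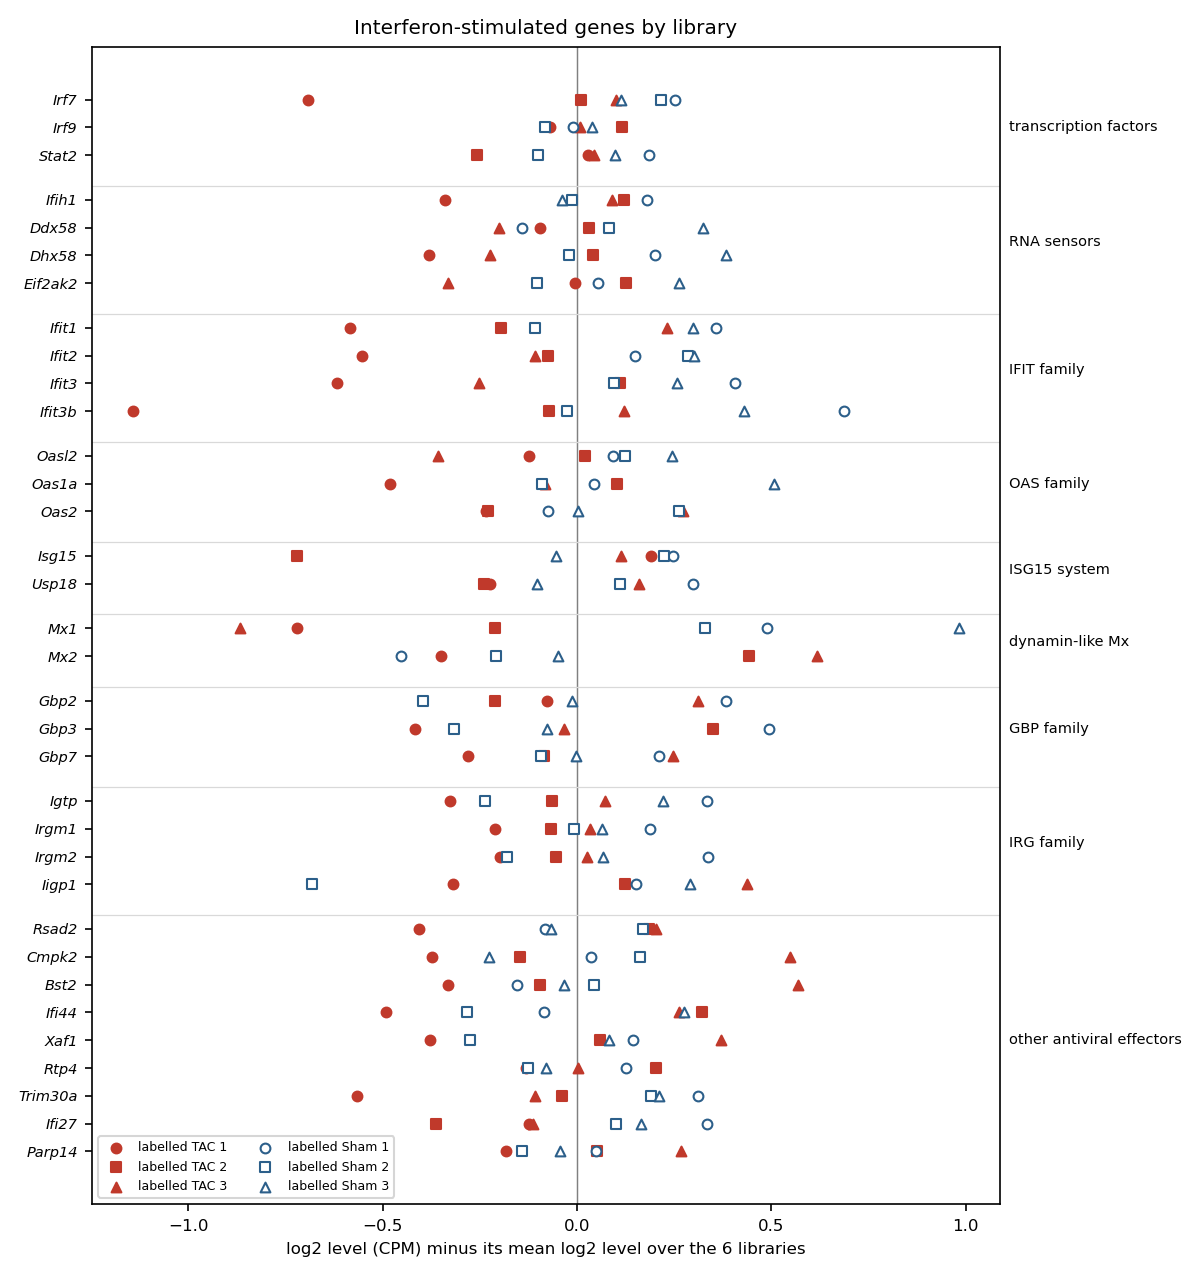
Level of each interferon-stimulated gene in each library (x axis, log2 CPM minus the gene's mean log2 CPM over 6 libraries), libraries labelled TAC filled and those labelled Sham open. Filled circles, the library labelled TAC 1, sit at the left end of most rows, and open circles, labelled Sham 1, at the right end of many.

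Libraries of the same label differed among themselves over these genes. TAC 1 was the lowest of the 6 libraries for 22 of the 34 genes (64.7%), against 14.4% of all genes tested, and the highest for 0 of them. Sham 1 was the highest library for 15 of the 34 (44.1%), against 12.5% of all genes. TAC 3 was the highest for 9 (26.5%, against 24.1% of all genes), 5 of them among the antiviral effectors just described, and Sham 3 for 7 (20.6%, against 13.7%). The median log2 level relative to each gene's own mean was -0.33, -0.01 and 0.08 in TAC 1, 2 and 3 and 0.18, -0.02 and 0.09 in Sham 1, 2 and 3. TAC 2 and 3 therefore lay within the range of the libraries labelled Sham. Without the library labelled TAC 1 the median log2 difference was -0.11 and 20 of 34 estimates were negative. Without TAC 3 it was -0.22 and 31 were negative. The members were not sampled independently, so these counts describe libraries and are not a test.

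**Figure D3:**
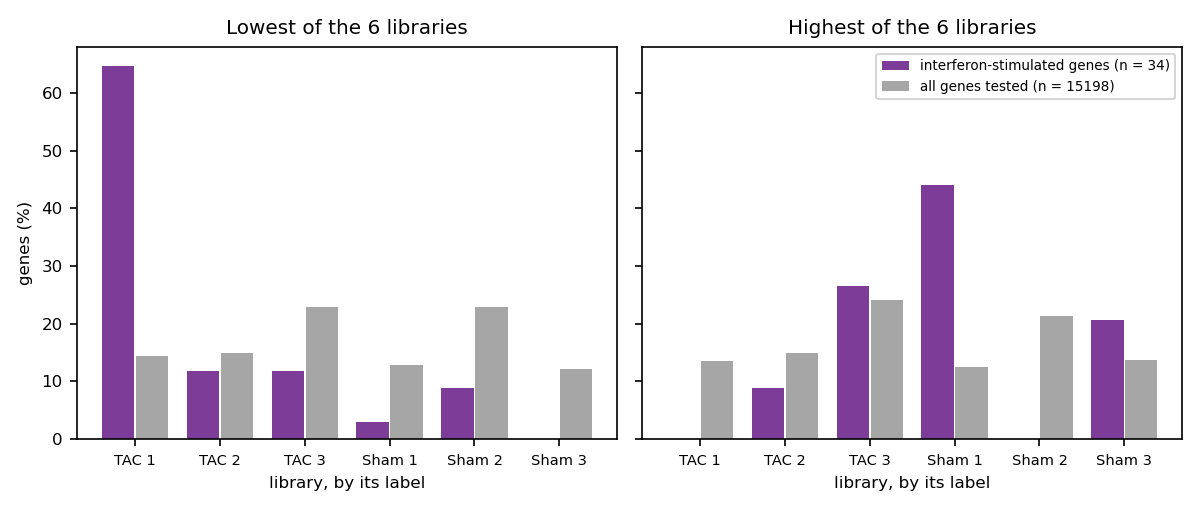
Share of genes (y axis, %) for which each library, by its label, was the lowest (left) or the highest (right) of the 6, for the 34 interferon-stimulated genes and all 15198 genes tested. TAC 1 was lowest for 64.7% of the 34 genes and Sham 1 highest for 44.1%, against 14.4% and 12.5% of all genes.

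Levels were low to moderate. Per length, in the deposited FPKM (counts scaled to gene length and library size), the 34 genes ran from 0.240 to 16.1 with a median of 2.65, close to the median of 2.59 over all genes tested. Iigp1 led with 16.5 ± 4.47 FPKM in the libraries labelled TAC, against 15.8 ± 5.45 in those labelled Sham (SD, n = 3 each). Bst2 followed with 7.61, 9.13 and 14.7 FPKM in TAC 1, 2 and 3 and 9.06, 10.2 and 10.3 FPKM in Sham 1, 2 and 3. Next were Gbp2, Ifit2, Parp14, Stat2, Ifit3 and Gbp7, all above 5 FPKM on average. Neighbours in this order overlapped in their library values throughout, from Bst2 and Gbp2 down to Irf7 and Ifi44. At the low end 5 genes averaged under 1 FPKM: Irf7, Ifi44, Mx2, Dhx58 and Mx1. The scale corrects for length as the authors computed it, and order within a family of similar sequences also depends on how shared reads were assigned.

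**Figure D4:**
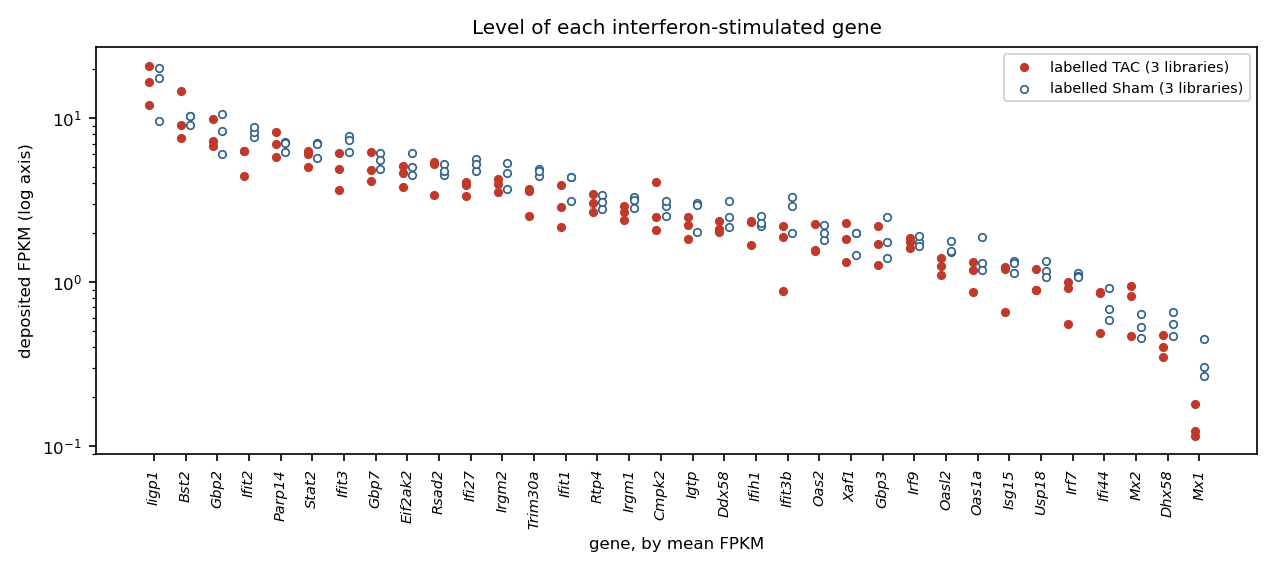
Deposited FPKM (y axis, log scale) of each interferon-stimulated gene in the 3 libraries labelled TAC (filled) and the 3 labelled Sham (open), ordered by the mean. The genes run from Iigp1 at a mean of 16.1 FPKM to Mx1 at 0.240, the gene whose filled and open points lie farthest apart.

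The rest of the pathway was read from 5 further lists. Of 13 interferon genes (alpha, beta, gamma, epsilon, kappa, zeta and lambda), 12 had 0 counts in all libraries, and Ifnz had 3 counts in all. A count of 0 allows up to 3 counts per library, so the other 12 were not detectable at this depth. Ifnz had 1 count in TAC 1 and 2 in TAC 2, and 0 in the rest. None of 11 receptor and JAK-STAT genes passed, and 7 had negative estimates (median -0.06). The groups did not overlap in 3 (27.3%, against 27.0% of all genes), 1 lower and 2 higher in the libraries labelled TAC. The 2 higher ones were Il10rb and Ifngr2 (Ifngr2 log2 difference 0.25, SE 0.12, adjusted p = 0.280 in edgeR). Ifngr1, the ligand-binding chain of the interferon gamma receptor, had the smallest p. It stood at 46.2, 50.5 and 60.8 CPM in TAC 1, 2 and 3, against 70.2, 88.2 and 63.6 CPM in Sham 1, 2 and 3, with no overlap (log2 difference -0.50, SE 0.16, adjusted p = 0.145). Il10rb, a chain shared by the lambda interferon and interleukin-10 receptors, ran the other way with 51.3, 56.5 and 68.3 CPM in TAC 1, 2 and 3 against 49.5, 40.1 and 39.5 CPM in Sham 1, 2 and 3 (log2 difference 0.45, SE 0.15, adjusted p = 0.152).

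Of 21 genes of nucleic acid sensing and interferon induction, 15 had negative estimates (median -0.30), and 1 passed, against 1.43% of all genes. At an unadjusted p under 0.05 in edgeR there were 7, all lower (33.3%, against 11.4% of all genes in that direction). The groups did not overlap in 5, all lower (23.8%, against 13.6% of all genes in that direction). Ifi204 (chromosome 1, 173747293 to 173766943), a DNA sensor of the PYHIN family whose members have similar sequences, had 8.22, 7.28 and 7.37 CPM in TAC 1, 2 and 3, against 15.3, 15.5 and 13.8 CPM in Sham 1, 2 and 3. It was 1.95-fold lower in the libraries labelled TAC (log2 difference -0.96, SE 0.13, adjusted p = 0.0285 in edgeR). Its adjusted p was 0.0426 without Sham 1 and between 0.0722 and 0.0910 without any other library, and 0.0871 in the fit blocked by replicate number, while its log2 difference stayed between -1.02 and -0.93 over those fits. Zbp1, a sensor of Z-form nucleic acid, is named here after its values were seen. It had 0.822, 0.814 and 0.915 CPM in TAC 1, 2 and 3 against 2.30, 1.94 and 2.23 CPM in Sham 1, 2 and 3 (log2 difference -1.33, SE 0.25, adjusted p = 0.0522).

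Other interferon-stimulated genes outside the 34 gave 54 tested entries. None passed, 43 had negative estimates (median -0.21), and 14 did not overlap, each lower in the libraries labelled TAC (25.9%, against 27.0% of all genes in either direction and 13.6% in the lower). The smallest p belonged to B2m, the light chain of MHC class I, with 80.4, 66.9 and 71.3 CPM in TAC 1, 2 and 3, against 134, 131 and 98.1 CPM in Sham 1, 2 and 3 (log2 difference -0.73, SE 0.15, adjusted p = 0.0579). Ifitm2, a membrane protein that blocks viral entry, had 19.3, 19.5 and 16.7 CPM in TAC 1, 2 and 3 against 25.1, 33.1 and 29.4 CPM in Sham 1, 2 and 3 (log2 difference -0.66, SE 0.14, adjusted p = 0.0665). Among 9 tested negative regulators none passed and 3 had negative estimates, Ptpn6 (adjusted p = 0.272) and Socs3 (adjusted p = 0.320) having the smallest p-values. Over the 5 lists 1 of 95 tested entries passed, against 1.43% of all genes.

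Marker lists of other cell types were read beside these genes. All 15 tested macrophage and monocyte markers had lower estimates in the libraries labelled TAC, and 0 passed an adjusted p of 0.05 in edgeR. The groups did not overlap in 11 (73.3%, against 13.6% of all genes in that direction), and 9 had an unadjusted p under 0.05, which 11.4% of all genes had in that direction. The list's summed level was 354, 368 and 204 CPM in TAC 1, 2 and 3, against 464, 511 and 493 CPM in Sham 1, 2 and 3. The 34 genes summed to 479, 574 and 624 CPM in TAC 1, 2 and 3 against 637, 544 and 619 CPM in Sham 1, 2 and 3. Abundant genes such as Parp14 and Iigp1 weigh most in this sum. Neutrophil markers summed to 18.5, 3.41 and 0.610 CPM in TAC 1, 2 and 3 against 1.53, 1.73 and 2.55 CPM in Sham 1, 2 and 3, highest in TAC 1. Fibroblast markers had lower estimates in all 8 genes (1345, 1537 and 1773 CPM in TAC 1, 2 and 3 against 2495, 2771 and 2108 CPM in Sham 1, 2 and 3) and cardiomyocyte markers higher ones in all 10 (summed 146754 to 173391 CPM in the group labelled TAC against 118571 to 139715 CPM in the group labelled Sham). The groups did not overlap in 6 of the 8 fibroblast markers (75%, against 13.6% of all genes in that direction). They did not overlap in 9 of the 10 cardiomyocyte markers (90%, against 13.4% of all genes with higher values). An unadjusted p under 0.05 was found for 6 fibroblast and 7 cardiomyocyte markers, against 11.4% and 9.56% of all genes. Of these, 1 of the 8 fibroblast markers passed the test, against 1.43% of all genes. It was the collagen gene Col1a2 (log2 difference -1.47, SE 0.26, adjusted p = 0.0459 in edgeR). The sums of endothelial markers overlapped between groups (2891 to 3512 CPM over the 6 libraries). Of the 10 endothelial markers, 1 did not overlap, with higher values in the libraries labelled TAC. The 6 plasmacytoid dendritic cell markers summed to 141, 165 and 204 CPM in TAC 1, 2 and 3 against 190, 173 and 210 CPM in Sham 1, 2 and 3, mostly Tcf4. That list shares Bst2 with the 34 genes. Of its 3 tested genes 2 had lower estimates and 1 a higher one, and its defining marker Siglech stood at 0 to 0.610 CPM. Lymphocyte and natural killer markers summed to 2.68 to 4.78 CPM. In bulk tissue fewer cells of a type and less RNA per cell cannot be told apart, and the part of any of these cells in the values of the 34 genes was not tested.

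**Figure D5:**
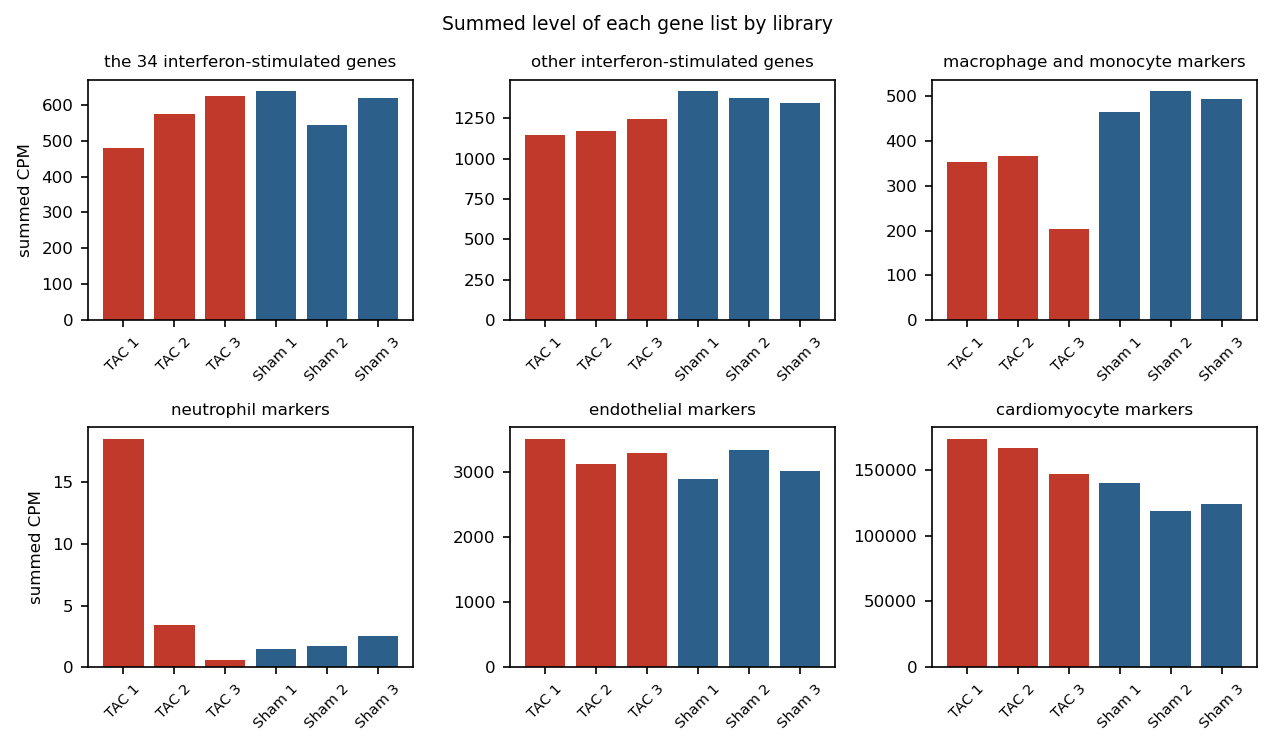
Summed CPM (y axis, from 0) of the 34 interferon-stimulated genes, of other interferon-stimulated genes and of marker lists of 4 cell types in each library by its label, TAC in red and Sham in blue. Macrophage markers are lower in every library labelled TAC, while the 34 genes overlap between groups and are lowest in TAC 1.

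The lncRNA table held 13 transcripts that overlap 12 of the 34 loci, 7 of them wholly inside. Only some are described here, with no rule set for the choice, and no share over all transcripts was computed. Dhx58os, which overlaps Dhx58 (chromosome 11, 100687417 to 100697520), had 1, 0 and 0 counts in TAC 1, 2 and 3, against 7, 16 and 5 counts in Sham 1, 2 and 3. A transcript inside Mx1 (chromosome 16, 97459428 to 97462905) had 9, 6 and 6 counts in TAC 1, 2 and 3 against 15, 30 and 22 counts in Sham 1, 2 and 3, the same order of groups as Mx1 itself. One that overlaps Ifih1 had 75, 139 and 122 counts in TAC 1, 2 and 3 against 158, 170 and 94 counts in Sham 1, 2 and 3, with TAC 1 lowest as in Ifih1. A transcript inside Eif2ak2 had 4, 3 and 4 counts in TAC 1, 2 and 3 and likewise 4, 3 and 4 counts in Sham 1, 2 and 3. With the strand setting not given in the sources used here, reads of such a transcript and of the gene it overlaps cannot be told apart. These counts are not scaled for depth, which was greatest in Sham 2 (28401399 counts over all genes), and were not tested.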

How the data were processed

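Left ventricle RNA of 6 libraries was analysed from 1 table of genes and 1 of lncRNA transcripts. Per the file headers, each holds raw counts and FPKM (counts scaled to length and library size), both deposited by the authors. HISAT2 2.0.4, StringTie 1.3.0 and GRCm38 (mm10) are named in the submitters' processing notes, with tool roles, annotation version and strand setting not given in the sources used here. Columns were tied to libraries by their description label.

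Gene counts were tested with edgeR 4.0.16 in R 4.3.3 (quasi-likelihood, TMM scaling, filterByExpr with a minimum count of 10, Benjamini-Hochberg adjustment over all 15198 genes, threshold 0.05). The SE of a log2 difference is its size over the root of its F statistic, and intervals use the moderated degrees of freedom. DESeq2 1.42.0, limma 3.58.1 (log2 FPKM, pseudocount 0.1 or 1), other scalings and filters, a replicate block and each library left out were alternatives. The genes, lists and roles were chosen with earlier results of these data known. All 34 genes are named. Values in every library are due, per role, for the smallest p and the 2 highest FPKM, and genes without overlap are named. From other lists, genes past the threshold or, with none, the 2 smallest p are named. Further values are extra. Tested on simulated counts of 15198 genes for this comparison, edgeR found 45.2% of genes set 2-fold apart and 89.2% of those 4-fold apart. Of all its calls there 8.94% were false, more than the threshold of 0.05 aims at. No pair of same-label libraries agreed within counting noise (chi-square 16.7 per gene or more).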

Additional observations from a re-analysis of the deposited data

How the results depend on the processing

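No interferon-stimulated gene tested passed under any of the 16 alternatives (29 of the 34 were tested with a mean FPKM of at least 1, which leaves out Irf7, Ifi44, Mx2, Dhx58 and Mx1), the smallest adjusted p being 0.0780 with DESeq2, and the median log2 difference lay between -0.22 and -0.11 in all of them. The count of all genes called was 217. It was 338 with unscaled totals (296 lower and 42 higher in the libraries labelled TAC, against 168 and 49), 432 without the filter, 1184 with DESeq2, 41 in the fit with a replicate block and 0 to 397 with 1 library left out (0 without TAC 1, 10 without TAC 2, 22 without TAC 3, 397 without Sham 1, 24 without Sham 2, 40 without Sham 3). The 5 genes at an unadjusted p under 0.05 became 2 to 6 with 1 library left out. Pathway genes called, 1 in the reported fit, were 4 with unscaled totals, 4 without the filter, 7 with DESeq2, 4 and 4 with limma at pseudocounts of 0.1 and 1, 2 after quantile normalization, 0 with the replicate block and 0 to 3 with 1 library left out. With DESeq2 the pathway lists had 7 calls among 95 tested entries, beside 1184 among all 15198 genes. All genes called were 285 and 281 with limma at pseudocounts of 0.1 and 1, and 146 after quantile normalization. Same-numbered libraries did not deviate together (correlations -0.122, -0.131 and -0.0957). With 3 libraries a group, each centred on its group mean, these values cannot show whether the numbers pair them. The causes were not tested.

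Of 539 alternative values of single genes, 48 changed sign, in 14 genes, none of them past the threshold. With unscaled totals Xaf1 was -0.0066, Rtp4 -0.0083, Irf9 -0.027, Rsad2 -0.052 and Gbp2 -0.062. Without the filter Rsad2 was -0.0041 and Gbp2 -0.0089, with a mean FPKM of at least 1 they were -0.000265 and -0.0094, and with the replicate block Rsad2 was -0.011. With limma on log2(FPKM + 0.1) Xaf1 was -0.028, Rtp4 -0.012, Irf9 -0.026, Rsad2 -0.074, Gbp2 -0.047 and Cmpk2 -0.042, and with a pseudocount of 1 they were -0.014, -0.0089, -0.018, -0.059, -0.044 and -0.023. With 1 library left out, Bst2 ran from -0.16 to 0.32, Cmpk2 from -0.26 to 0.24, Gbp2 from -0.17 to 0.22, Gbp3 from -0.28 to 0.19, Gbp7 from -0.22 to 0.0485, Ifi44 from -0.0482 to 0.31, Ifih1 from -0.15 to 0.0605, Iigp1 from -0.11 to 0.32, Irf9 from -0.01 to 0.0818, Isg15 from -0.40 to 0.00532, Parp14 from -0.0155 to 0.21, Rsad2 from -0.0924 to 0.18, Rtp4 from -0.0376 to 0.13 and Xaf1 from -0.13 to 0.23. Low counts limit the precision of genes such as Isg15 and Mx1.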
